A study of Homo sapiens with 6 samples.

Results

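The genes described here are the neuronal and intermediate filament genes that HEK293 cells are known to transcribe. They were chosen by name, as the rows of the deposited table whose symbol is NEFL, NEFM, NEFH, INA, VIM, NES, UCHL1, KRT8 or KRT18. Of these 9 names, 8 were found among the 20345 protein-coding genes of the table, and NEFL was not analysed here. RNA came from 6 samples of HEK 293FT, a derivative of human embryonic kidney cells with the large T antigen of SV40. The control group, marked Vec in the titles, held 3 samples of HEK 293FTGFP cells, and the other held 3 samples of HEK 293FTGFP-CTRB1 cells. They are called GFP cells and CTRB1 cells below. By their names all carry green fluorescent protein and the second also CTRB1, the gene of chymotrypsinogen B1, a digestive protease precursor of the pancreas. The promoter that drives either, and whether each line was a clone or a pool, are not given in the sources used here. No label tells whether the 3 samples of a group were grown apart, and each p-value is judged against the spread among them, which may be technical.

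Intermediate filaments are rope-like polymers of rod-shaped proteins that give a cell mechanical strength. Their subunits are used by tissue: keratins pair a type I with a type II chain in epithelia, vimentin forms filaments in mesenchymal cells, nestin joins vimentin in progenitor cells, and the neurofilament chains with alpha-internexin set the calibre of axons. HEK293 cells are unusual in that they transcribe members of all these classes at the same time, which is why their origin from a neural or adrenal cell of the embryonic kidney preparation has been discussed. UCHL1, a ubiquitin C-terminal hydrolase, is not a filament gene but is an abundant protein of neurons and belongs to the same expression profile.

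The GFP libraries held 52571457 to 159616285 counts and the CTRB1 libraries 27514767 to 32522018, so every GFP library was deeper than every CTRB1 library, and depth cannot be told apart from the group. CTRB1 itself had 0 to 5 counts in the GFP libraries and 19345 to 22749 in the CTRB1 libraries. Changes were tested with edgeR's quasi-likelihood test on the counts, with Benjamini-Hochberg adjustment over 11961 genes and a threshold of 0.05. CPM, the count divided by the scaled library size, is used for changes. TPM, the authors' length-corrected value, is used for levels between genes. In bulk RNA, fewer cells that express a gene and less of its RNA per cell cannot be told apart.

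Vimentin, alpha-internexin and UCHL1 transcripts were lower in CTRB1 cells by 10 to 20%, and those of the medium neurofilament chain were slightly higher. Of the 8 genes, 7 passed the filter on low values, and of these 1 was called higher and 3 lower. That is 57.1% of the genes tested, where 37.4% of all genes tested were called (18.6% higher and 18.9% lower). Among all genes, 2221 were called higher and 2258 lower, and with limma on log2(TPM + 1) 1209 higher and 1986 lower. The 4 called genes were also those whose groups did not overlap in CPM, which held for 50.0% of all genes tested. The median log2 change of the 7 genes was 0.001, beside 0.003 over all genes tested, so the genes did not move as a block.

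The stretch of DNA before the start of the 3 genes that fell is shown because they moved in the same direction. Of the 8 genes, 5 had an entry among the RefSeq promoters of build GRCh38.p14. The 150 bases before the start of VIM (chr10:17228091-17228240, plus strand), INA (chr10:103276988-103277137, plus strand) and UCHL1 (chr4:41256778-41256927, plus strand) are printed 5′ to 3′, with matches to the motifs searched in capitals. For VIM and INA the bases that follow the RefSeq start were not found in the GENCODE v29 transcripts compared here, so their start is that of RefSeq alone.
VIM: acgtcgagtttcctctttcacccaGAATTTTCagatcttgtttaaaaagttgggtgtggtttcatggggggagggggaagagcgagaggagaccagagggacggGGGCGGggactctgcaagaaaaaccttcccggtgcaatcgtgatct
INA: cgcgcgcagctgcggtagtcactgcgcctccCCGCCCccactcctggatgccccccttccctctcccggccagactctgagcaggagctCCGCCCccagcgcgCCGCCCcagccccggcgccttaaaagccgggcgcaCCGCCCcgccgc
UCHL1: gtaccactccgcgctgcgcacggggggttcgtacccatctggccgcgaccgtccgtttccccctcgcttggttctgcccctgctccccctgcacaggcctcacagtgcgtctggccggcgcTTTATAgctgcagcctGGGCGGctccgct
All 3 stretches held the GC box GGGCGG (on either strand), with 4 matches in INA and 1 each in VIM and UCHL1, and 42.3% of 27305 promoters held it within 250 bases before the start. Of the genes with an entry that were not called, NES held 2 matches and KRT8 none. Of the 3, VIM held the heat shock element core GAANNTTC, found in 5.85% of promoters. UCHL1 held the TATA box TATAAA, found in 11.1% of promoters, on the opposite strand. CCAAT (33.0% of promoters), the AP-1 site TGANTCA (6.6%), the cAMP response element TGACGTCA (1.77%), the amino acid response element TGATGNAA (3.19%) and the core (0.0549%) of RE1, the element bound by the neuronal repressor REST, had no match in any of the 3. A match is a run of letters and not a shown binding site.

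The levels of the 8 genes spanned more than 3 orders of magnitude. VIM had 785, 778 and 711 TPM in the GFP libraries and 680, 702 and 682 TPM in the CTRB1 libraries, and only 139 of the 20345 genes had a higher mean TPM. UCHL1 came next, at 349 to 451 TPM in GFP cells and 269 to 294 TPM in CTRB1 cells. KRT18, the type I keratin of simple epithelia, lay at 98.3 to 103 TPM and at 91.9 to 100.02 TPM.
Below these abundant transcripts stood the type II partner of keratin 18 and the neuronal chains. KRT8 had 36.3 to 39.2 TPM in GFP cells and 37.7 to 40.4 TPM in CTRB1 cells, NEFM 25.8 to 27.7 and 26.9 to 32.4 TPM, and INA 14.1 to 15.2 and 10.5 to 12.9 TPM. NES, the nestin gene, reached 4.02 to 4.11 and 3.78 to 4.19 TPM, and NEFH, the heavy neurofilament chain, 0.231 to 0.364 and 0.0714 to 0.470 TPM.
The order VIM, UCHL1, KRT18, KRT8, NEFM, INA, NES, NEFH held in both groups. Each gene lay above the next in all libraries of a group, so no neighbours in the order overlapped, and the closest pair was KRT8 and NEFM, with a ratio of mean TPM of 1.42 in GFP cells and 1.35 in CTRB1 cells. With counts divided by a fixed transcript length for each gene the order was the same.

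**Figure D1:**
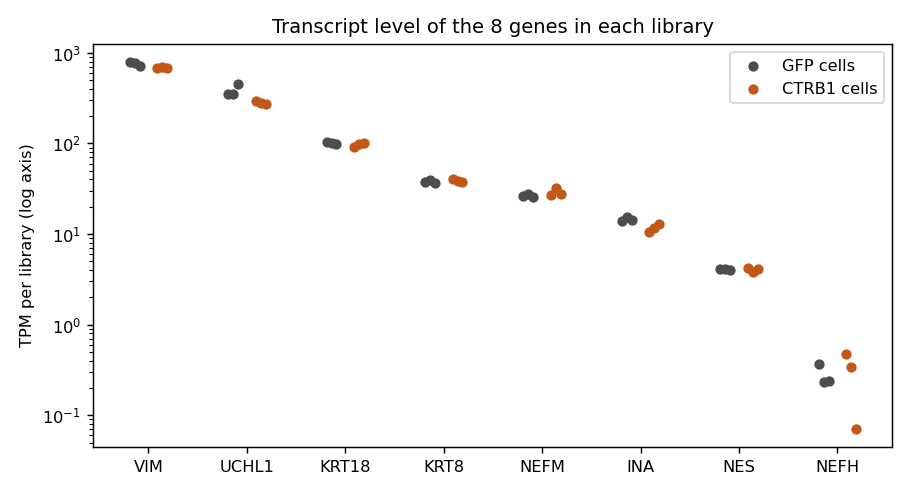
TPM of the 8 genes in each library on a log axis, 3 GFP libraries in grey and 3 CTRB1 libraries in orange. VIM lies between 680 and 785 TPM and NEFH below 0.5 TPM, and the order of the genes is the same in both groups.

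VIM encodes vimentin, the type III subunit of mesenchymal and migrating cells. Its transcript (ENSG00000026025; chromosome 10, positions 17270258 to 17279592 in the table's own coordinates, whose build is not named) had 781, 770 and 762 CPM in the GFP libraries and 674, 711 and 687 CPM in the CTRB1 libraries. Every CTRB1 library lay below every GFP library. The mean fell from 771 ± 9.47 to 691 ± 19.2 CPM (SD, n = 3 each), a log2 change of -0.16 ± 0.023 (SE) with an edgeR adjusted p of 0.000471. In percent the level fell by 10.4%, with a 95% interval from -13.5 to -7.13%. The change was modest even among called genes, of which 33.6% had a smaller log2 change in size. The next gene before VIM in the table, TRDMT1, an RNA methyltransferase gene, was higher in CTRB1 cells, with a log2 change of 0.24 (edgeR adjusted p = 0.0223), so the 2 neighbours moved in opposite directions.

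INA encodes alpha-internexin, a type IV subunit that appears early in neuronal differentiation and assembles with the neurofilament chains. The gene (ENSG00000148798; chromosome 10, positions 105036920 to 105050108) had 24.1, 25.9 and 24.2 CPM in the GFP libraries and 17.8, 20.3 and 22.3 CPM in the CTRB1 libraries. The groups did not overlap, but the CTRB1 libraries were spread widely. The mean fell from 24.7 ± 0.984 to 20.1 ± 2.23 CPM (SD, n = 3 each), a log2 change of -0.30 ± 0.076 (SE) with an edgeR adjusted p of 0.0105 and a 95% interval of -0.46 to -0.13. In counts it was the largest change in size among the 7 genes, and 76.5% of called genes had a smaller one, whereas with limma on log2(TPM + 1) the log2 change was -0.29 for INA and -0.45 for UCHL1. The call was lost without GFP replicate 2, with an edgeR adjusted p of 0.052 and a log2 change of -0.26.

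NEFM encodes the medium neurofilament chain, which carries a long tail that projects from the filament. Its counts (ENSG00000104722; chromosome 8, positions 24770525 to 24776607) gave 55.1, 51.6 and 53.9 CPM in the GFP libraries and 57.1, 58.5 and 58.9 CPM in the CTRB1 libraries. All 3 CTRB1 libraries lay above the GFP libraries, by a small margin. The mean rose from 53.5 ± 1.8 to 58.2 ± 0.947 CPM (SD, n = 3 each), with a log2 change of 0.12 ± 0.037 (SE) and an edgeR adjusted p of 0.0257. This call was the least stable of the 4. It did not pass on leaving out GFP replicate 2 (edgeR adjusted p = 0.0871), GFP replicate 3 (0.0695), CTRB1 replicate 2 (0.0607) or CTRB1 replicate 3 (0.0587), and with limma on log2(TPM + 1), where the groups overlapped (adjusted p = 0.271). Its direction was the same in all of these.

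NEFH encodes the heavy neurofilament chain, which joins axonal filaments late in maturation. It was near the lower limit of these libraries (ENSG00000100285; chromosome 22, positions 29876219 to 29887379), with 39, 30 and 78 counts in GFP cells and 30, 23 and 4 in CTRB1 cells. In CPM these were 0.744, 0.462 and 0.490 against 0.947, 0.708 and 0.145, so CTRB1 cells held both the highest and the lowest value. The gene did not pass the filter. In a fit with no filter its log2 change was 0.12 ± 0.46 (SE), with an edgeR adjusted p of 0.879, and a change of the size seen in the other chains was not detectable at this depth.

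In CPM, INA was lower and NEFM slightly higher in CTRB1 cells. The makeup of the neurofilament transcripts was described in TPM, where the NEFM groups overlapped. INA was 34.7%, 35.3% and 35.2% of the summed TPM of NEFM, NEFH and INA in GFP cells and 27.6%, 26.2% and 32.0% in CTRB1 cells. NEFM made up 64.1 to 64.4% in GFP cells and 67.9 to 73.0% in CTRB1 cells, and NEFH 0.536 to 0.897% and 0.177 to 1.24%. In TPM the INA share was thus near 35% in all 3 GFP libraries and lower and more variable in the CTRB1 libraries. The mean share of INA in TPM was 35.1 ± 0.339% in GFP cells and 28.6 ± 3.00% in CTRB1 cells (SD, n = 3 each), a difference of -6.48 percentage points. By an exact two-sided permutation test p was 0.1, and no smaller value is possible with 3 libraries against 3. The difference was -6.43 percentage points with a fixed transcript length for each gene and -5.91 with CPM. The closeness of the GFP shares, and so the contrast in spread, is stated for TPM only. Of the GFP libraries, replicate 2 had the lowest NEFM value in CPM (51.6) but the highest in TPM (27.7). Its INA value was the highest of them in both units. Without NEFL, these are shares among the 3 chains measured and not of whole neurofilaments.

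NES encodes nestin, a large type IV subunit of neural and muscle progenitors that needs vimentin to form filaments. It had 11.97, 12.003 and 11.9 CPM in the GFP libraries and 12.3, 11.4 and 12.3 CPM in the CTRB1 libraries (ENSG00000132688; chromosome 1, positions 156638555 to 156647189). The groups overlapped. The log2 change was 0.003 ± 0.075 (SE; edgeR adjusted p = 0.979), with a 95% interval of -0.16 to 0.17, so a change of the size of that of VIM lies near its edge. CRABP2, the retinoic acid binding protein gene that follows NES in the table, was lower in CTRB1 cells (log2 change -0.27, edgeR adjusted p = 0.000496). Of the other non-member neighbours tested, EIF4B, which follows KRT18, was higher (log2 change 0.26, edgeR adjusted p = 6.69e-05). DOCK5, THOC5, PCGF6, APBB2 and LIMCH1, next to NEFM, NEFH, INA and UCHL1, were not called.

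KRT8 and KRT18 encode the type II and type I keratins that pair in simple epithelia, and they lie next to each other on chromosome 12. KRT18 (ENSG00000111057; positions 53342655 to 53346685) had 78.7, 76.7 and 75.5 CPM in the GFP libraries and 73.3, 77.5 and 80.3 CPM in the CTRB1 libraries. KRT8 (ENSG00000170421; positions 53290977 to 53343738) had 34.3, 35.9 and 33.2 CPM and 36.6, 35.4 and 37.4 CPM. The groups overlapped for both genes. The log2 change was 0.001 ± 0.036 for KRT18 and 0.08 ± 0.047 for KRT8 (SE; edgeR adjusted p = 0.978 and 0.187), with 95% intervals of -0.08 to 0.08 and -0.02 to 0.19.
The paired chains were not equal at the transcript level. KRT8 stood at 0.365, 0.390 and 0.369 of the TPM of KRT18 in GFP cells and at 0.440, 0.393 and 0.376 in CTRB1 cells. The highest ratio was that of CTRB1 replicate 1, and the groups overlapped, since CTRB1 replicate 3 lay below GFP replicate 2. The mean log2 ratio was -1.42 ± 0.05 and -1.31 ± 0.12 (SD, n = 3 each; exact two-sided permutation p = 0.2, where 0.1 is the smallest possible). The difference of the log2 ratios was 0.10, and 0.039 without CTRB1 replicate 1. The 2 gene models overlap by 1084 bases on opposite strands. No source used here says whether counting used strand, so reads there may not be separated. GENCODE v29 also annotates 50 pseudogenes named after KRT8 and 67 after KRT18. Of the 100-base windows of the KRT8 transcript, 5.92% occur unchanged in one of 4 pseudogenes, and none of the windows of KRT18 or of the other 6 genes occur in another gene.

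**Figure D2:**
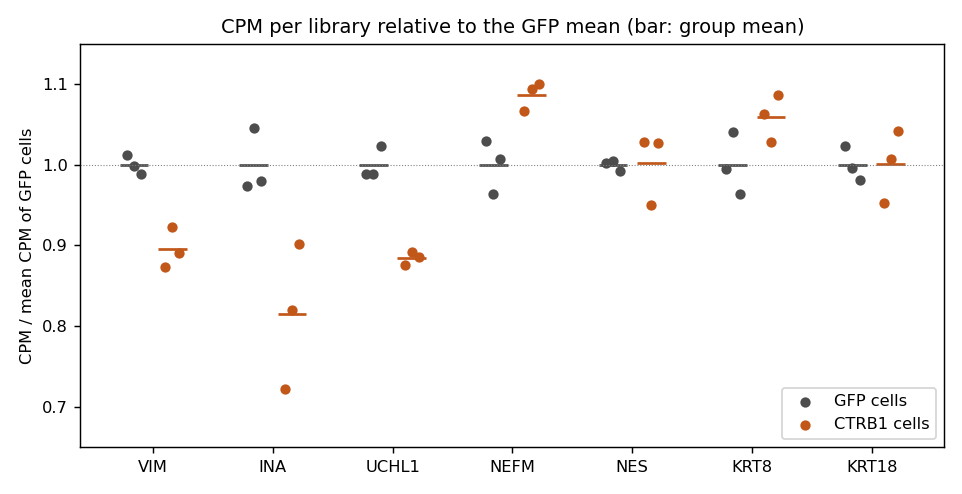
CPM of each of the 7 genes tested in every library, divided by the mean CPM of the 3 GFP libraries of that gene. Points are libraries, bars are group means, grey is GFP and orange is CTRB1. VIM, INA and UCHL1 are lower in all 3 CTRB1 libraries and NEFM is higher, while NES, KRT8 and KRT18 overlap.

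UCHL1 encodes a ubiquitin C-terminal hydrolase that makes up a sizeable share of soluble protein in neurons and is known for its link to Parkinson disease. Its transcript (ENSG00000154277; chromosome 4, positions 41258430 to 41270472) had 241.2, 241.2 and 249.8 CPM in the GFP libraries and 214, 218 and 216 CPM in the CTRB1 libraries. The groups lay well apart and the values within each group were close. The mean fell from 244 ± 4.97 to 216 ± 2.00 CPM (SD, n = 3 each), with a log2 change of -0.18 ± 0.025 (SE), an edgeR adjusted p of 0.000337 and a 95% interval of -0.23 to -0.12.

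The size of the UCHL1 change depended on the unit. In TPM the GFP libraries stood at 352, 349 and 451 and the CTRB1 libraries at 294, 277 and 269, a log2 change of -0.45 with limma on log2(TPM + 1) (adjusted p = 0.0096). GFP replicate 3 was thus 1 of 3 close values in CPM and far above the other two in TPM. The number of reads behind 1 TPM, relative to the median gene and to GFP replicate 1, was 0.809 in GFP replicate 3 and 1.07 to 1.16 in the CTRB1 libraries. A fixed transcript length would keep this number at 1 in every library. For UCHL1 it differed 1.43-fold between libraries, a spread that only 0.964% of 8819 well-counted genes exceeded. Without GFP replicate 3 the change in counts was -0.16 on the log2 scale (edgeR adjusted p = 0.00317). The same number for VIM was 1.08 in GFP replicate 3 and 0.995 to 1.01 in the other libraries, for NEFM it was 0.842 in CTRB1 replicate 2 and 0.895 in GFP replicate 2, and for INA it stayed between 0.996 and 1.00. UCHL1 has 4 coding transcripts in the basic set of GENCODE v29, and NEFM has 4, while VIM and INA have 1 each. Whether the authors' lengths followed isoforms was not tested.

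**Figure D3:**
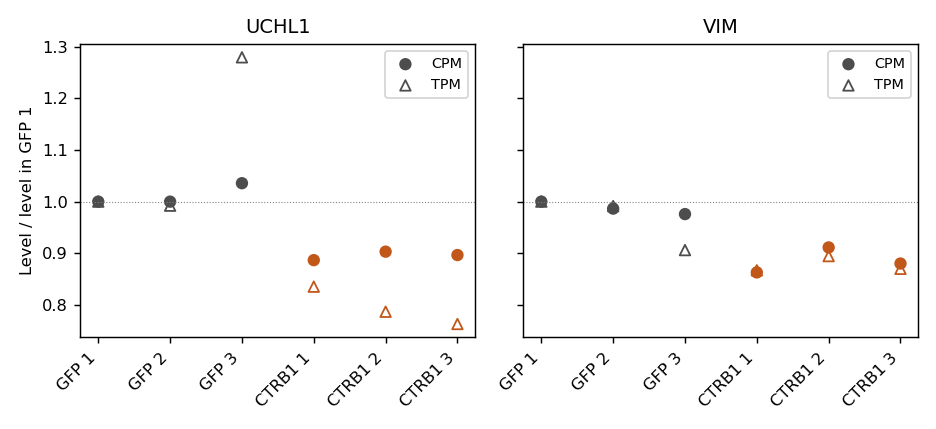
Level of UCHL1 (left) and VIM (right) in each library divided by the level in GFP replicate 1, as CPM (filled circles) and TPM (open triangles). UCHL1 in GFP replicate 3 is near the other GFP libraries in CPM and stands far above them in TPM.

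Seen together, the filament transcripts were dominated by vimentin in both groups. VIM made up 80.9%, 80.6% and 79.9% of the summed TPM of the 7 filament genes in GFP cells and 79.6%, 79.2% and 78.9% in CTRB1 cells. All CTRB1 libraries lay below all GFP libraries, by a difference of the means of -1.26 percentage points (exact two-sided permutation p = 0.1, the smallest possible).
The genes differ in build as well as in level. In GENCODE v29 the main transcripts of NEFM and INA have 3 exons each and those of NEFH and NES 4, while VIM, KRT8 and UCHL1 have 9 each and KRT18 has 7. The coding sequences range from 669 bases in UCHL1 to 4863 in NES. NEFM, which rose, and INA, which fell, have the same number of exons.

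**Figure D4:**
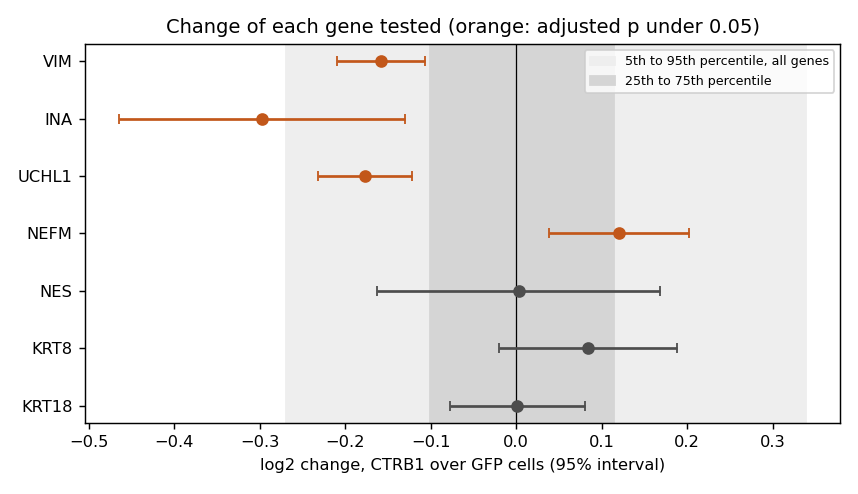
Log2 change (CTRB1 over GFP) of the 7 genes tested with 95% intervals, orange where the edgeR adjusted p is under 0.05. The grey bands span the 25th to 75th (-0.10 to 0.11) and the 5th to 95th percentile (-0.27 to 0.34) of all 11961 genes, and INA alone lies outside the wider band.

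The non-member gene whose profile over the 6 libraries was nearest to each gene was found by the root mean square difference of centred log2 CPM, among 10659 genes. It was ALDOA, a glycolytic enzyme gene, for VIM (0.0077), CLPTM1L for UCHL1 (0.0097), BHLHE40, a transcription factor gene, for NEFM (0.013), and SLC30A1, a zinc exporter gene, for INA (0.042). For NES, KRT18 and KRT8 it was TEAD4 (0.0097), STAMBP (0.0099) and APBA3 (0.019). Within 0.05 lay 1228 genes for VIM and 812 to 1465 for the other genes except INA, for which there were 6.

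Of 6 other non-keratin filament genes tested, 1 was lower and none higher (median log2 change -0.02). Among all genes tested, 18.6% were called higher and 18.9% lower. None of the 6 was higher at an unadjusted p under 0.05 with edgeR or called higher with DESeq2 or limma. The lower gene was LMNB2, of the nuclear lamina, at 383 ± 3.95 and 343 ± 1.73 CPM (SD, n = 3 each). Its log2 change was -0.16 (edgeR adjusted p = 0.000273). PRPH, the peripheral neuron filament gene peripherin, had 2.08 ± 0.368 and 2.73 ± 0.427 CPM, and its log2 change of 0.38 was not called (edgeR adjusted p = 0.114). DES and GFAP, the muscle and astrocyte subunits, lay at 0.403 and 0.952 TPM in GFP cells. In CTRB1 cells their means were 0.545 and 1.43 TPM, and neither was tested. GFAP overlapped between the groups, at 1.30 to 1.39 CPM in GFP libraries and 0.985 to 2.36 CPM in CTRB1 libraries. DES had 0.344 to 0.427 and 0.505 to 0.554 CPM, with only 14 to 18 counts in the CTRB1 libraries. Among 21 other keratin genes only KRT10 passed the filter. It had 22.8 ± 1.17 CPM in GFP cells and 17.9 ± 0.817 in CTRB1 cells (log2 change -0.35; edgeR adjusted p = 0.00163), whereas the other 20 stayed under 1 TPM in every library and 9 had no count.

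Of 12 tested genes that anchor or remove filaments, 2 were higher and 3 lower (median log2 change -0.02), where 18.6% of all genes tested were called higher and 18.9% lower. DSP, the desmoplakin gene that ties keratins to desmosomes, was lower (log2 change -0.12; edgeR adjusted p = 0.00835). TRIM2, a ubiquitin ligase gene that acts on the light neurofilament chain in mouse, was higher (0.16; adjusted p = 0.00805), and so was DSG2, a desmosomal cadherin gene (0.10; adjusted p = 0.0118). On leaving out GFP replicate 1, DSG2 lost its call (edgeR adjusted p = 0.050004). With limma on log2(TPM + 1) neither TRIM2 nor DSG2 was called (adjusted p = 0.227 and 0.121).

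Kinases and phosphatases that act on filament proteins gave 3 higher and 2 lower genes among 16 (median -0.02). The shares over all genes tested were 18.6% called higher and 18.9% called lower. The mitotic kinase genes PLK1 and AURKB, whose products phosphorylate vimentin in mitosis, rose, with log2 changes of 0.13 each and edgeR adjusted p-values of 0.00381 and 0.00596. PLK1 was not called with limma on log2(TPM + 1) (adjusted p = 0.135). CDK1 had a log2 change of 0.13 (edgeR adjusted p = 0.0145), lost without GFP replicate 2, GFP replicate 3 or CTRB1 replicate 3 (highest adjusted p = 0.0601). PPP2CA, the catalytic subunit of protein phosphatase 2A, fell by 0.12 on the log2 scale (edgeR adjusted p = 0.00439).

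The other ubiquitin C-terminal hydrolase genes, a list of only 3, were also lower, where 18.9% of all genes tested were called lower. All 3 were called: UCHL3 had a log2 change of -0.21 (edgeR adjusted p = 0.0108), UCHL5, of the proteasome, -0.11 (adjusted p = 0.00665), and BAP1, a chromatin deubiquitinase gene, -0.08 (adjusted p = 0.0325). With limma on log2(TPM + 1), UCHL5 and BAP1 were not called (adjusted p = 0.117 and 0.0911). BAP1 was also lost without GFP replicate 2, GFP replicate 3 or CTRB1 replicate 3 (highest adjusted p = 0.147).

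Of 19 tested genes of the neuronal cytoskeleton and growth cone, 4 were higher and 6 lower (median 0.02). Over all genes tested, 18.6% were called higher and 18.9% lower. TUBB2B, a tubulin gene of migrating neurons, rose from 72.3 ± 1.64 to 85.3 ± 2.40 CPM (SD, n = 3 each), with an edgeR adjusted p of 0.000223, and MAP1B, a microtubule-associated protein gene of growing axons, from 113 ± 2.49 to 137 ± 8.07 CPM (adjusted p = 0.000394). KIF5C, a kinesin motor gene, fell from 55.1 ± 0.932 to 46.6 ± 1.09 CPM (adjusted p = 0.000583), and DPYSL5, a collapsin response mediator gene, from 113 ± 3.3 to 99.4 ± 3.56 CPM (adjusted p = 0.00124).
Genes of neuronal and neuroendocrine identity gave 2 higher and none lower among 11 (median 0.02). With edgeR, 2 were lower at an unadjusted p under 0.05, and with DESeq2 and limma 0 were called lower. NRCAM, a neuronal adhesion gene, was among the higher genes (log2 change 0.29; edgeR adjusted p = 0.024). The call of NRCAM was lost without GFP replicate 1, GFP replicate 2, CTRB1 replicate 1 or CTRB1 replicate 3 (highest adjusted p = 0.0966) and with limma on log2(TPM + 1) (adjusted p = 0.11).

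Among 12 tested neural regulators 1 was higher and 3 lower (median -0.006), where 18.6% of all genes tested were called higher and 18.9% lower. SOX4, a transcription factor gene of neural and mesenchymal progenitors, fell from 138 ± 2.41 to 97.6 ± 2.93 CPM (SD, n = 3 each), a log2 change of -0.50 (edgeR adjusted p = 6.52e-07). It had the largest change in size among the regulators tested. ZIC2, of forebrain patterning, and RCOR1, a corepressor that works with REST, had log2 changes of -0.24 and -0.19 (adjusted p = 0.000687 and 0.004). REST itself had a log2 change of -0.05 (adjusted p = 0.291). MYT1 had a log2 change of 0.34 (edgeR adjusted p = 0.0396), lost without GFP replicate 1, GFP replicate 3, CTRB1 replicate 1 or CTRB1 replicate 2 (highest adjusted p = 0.158) with no filter (adjusted p = 0.0681) and with limma on log2(TPM + 1) (adjusted p = 0.168).

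**Figure D5:**
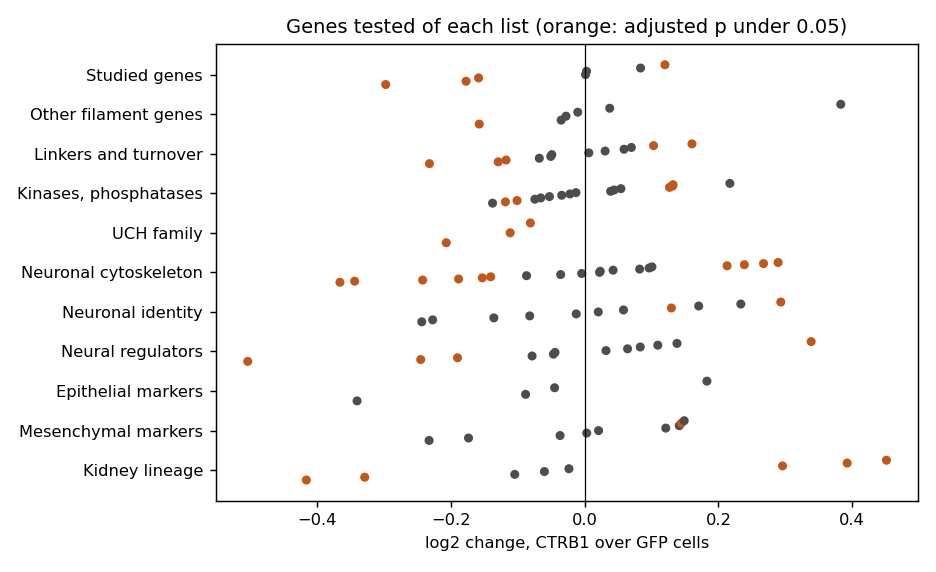
Log2 change (CTRB1 over GFP) of each tested gene, by list, orange where the edgeR adjusted p is under 0.05. The 3 other ubiquitin C-terminal hydrolase (UCH) genes are all lower, where 18.9% of all genes tested were called lower. SOX4 at -0.50 is the lowest point.

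Markers of the labelled tissue and of other cell types were checked beside these results, where 18.6% of all genes tested were called higher and 18.9% lower. The kidney list had 18 genes, 9 of which stayed under 1 TPM in every library, among them the nephron markers UMOD and AQP2, while SIX2, an early nephron progenitor gene, lay at 41.5 and 40.3 TPM. Of 8 kidney genes tested, 3 were higher and 2 lower (median -0.04): GATA3 (log2 change 0.45; edgeR adjusted p = 0.00605; 0.0748 with limma on log2(TPM + 1)) and PAX2 (0.39; adjusted p = 0.0101) were higher, and LRP2 (-0.42; adjusted p = 0.000219) and WT1 (-0.33; adjusted p = 0.009) lower. Epithelial markers were low, with EPCAM at 4.36 and 3.44 TPM and CDH1 at 3.10 and 3.43 TPM, and 0 of 4 tested were called (edgeR adjusted p = 0.139 for EPCAM and 0.159 for CDH1), nor were any at an unadjusted p under 0.05 or with DESeq2 or limma. Without CTRB1 replicate 3, EPCAM was called at a log2 change of -0.58 (edgeR adjusted p = 0.00653), against -0.34 with all libraries, and CDH1 stood at 0.10 against 0.18. Of 9 mesenchymal markers tested, 1 was called: ZEB1 had a log2 change of 0.14 (adjusted p = 0.0247), lost without GFP replicate 1, GFP replicate 2 or CTRB1 replicate 3 (highest adjusted p = 0.0922) and with limma on log2(TPM + 1) (adjusted p = 0.106).

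Of 8 adrenal chromaffin markers 4, TH among them, had no count, and the summed level was 5.78 to 6.27 TPM in GFP cells and 5.63 to 6.74 TPM in CTRB1 cells. PNMT, the only one of 2 tested that was called (log2 change 0.55; edgeR adjusted p = 0.0414), lost its call whichever single library was left out (highest adjusted p = 0.135) and with DESeq2 (adjusted p = 0.0876), and kept it with limma on log2(TPM + 1) (adjusted p = 0.0322). Of 9 mature neuron markers 3 were tested and none called (SYT1 0.23 and GAD1 0.09; edgeR adjusted p = 0.0928 and 0.306), with 1 at an unadjusted p under 0.05 and 0 called with DESeq2 or limma. SYT1 was called without CTRB1 replicate 2 (log2 change 0.33; edgeR adjusted p = 0.0144) and stood at 0.15 without CTRB1 replicate 1. Their summed level was 23.8 to 25.3 TPM in GFP cells and 24.9 to 28.7 TPM in CTRB1 cells, with 4 of 9 under 1 TPM throughout. Glia markers summed to 35.5 to 36.05 and 32.7 to 33.9 TPM, with neither of 2 tested called (SLC1A3 -0.09 and OLIG2 -0.18; edgeR adjusted p = 0.143 and 0.188), nor at an unadjusted p under 0.05 or with DESeq2 or limma. SLC1A3 was called without CTRB1 replicate 2 (-0.15; edgeR adjusted p = 0.0224) and OLIG2 without GFP replicate 1 (-0.28; adjusted p = 0.0467). Fibroblast markers summed to 15.2 to 16.4 and 15.9 to 18.4 TPM, most of it COL1A1, the 1 gene tested (log2 change 0.23; adjusted p = 0.0331). That call was lost on leaving out any library but CTRB1 replicate 1 (highest adjusted p = 0.12) and with limma on log2(TPM + 1) (adjusted p = 0.338). Blood markers summed to 1.5 to 1.60 and 0.659 to 1.00 TPM and endothelial markers to 0.238 to 0.380 and 0.229 to 0.254 TPM, and none of these was tested.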

How the data were processed

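The deposited table gives, per the file headers, read counts, FPKM and TPM per gene for 6 samples. The authors left the counts unnormalized, as whole numbers. The FPKM and TPM values are the authors' own, and the deposited comparison gives a log2 fold change and p-values. In the authors' deposited table the adjusted p is 0.0409 for NEFM, 0.00202 for INA, 1.7e-11 for VIM and 3.02e-10 for UCHL1 and above 0.05 for the other four genes, and none of the 8 carries the authors' mark for a changed gene. Per the submitters' processing notes the tools include HTSeq 0.6.1, HISAT2 2.2.1 and cutadapt 1.9.1, with no roles stated. The notes list a mouse build, GRCm38, although all 20345 gene identifiers are human. No source used here names the build of the coordinates, and they were not combined with GRCh38.

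Here edgeR 4.0.16 in R 4.3.3 was run on the counts with TMM factors, 1 model of 2 groups without covariates, for genes that reached an FPKM of 1 in 3 or more of 6 libraries. The SE of a log2 change was taken from the F statistic (absolute change over root F). Alternatives used DESeq2 1.42.0, limma 3.58.1, other scalings and filters, the replicate number as a block, and leaving out each library. The edgeR script was first checked on simulated counts. A floor of 3 counts was 0.0188 to 0.109 CPM, counting error only. Libraries of a group differed by more than sampling noise (chi-square over its degrees of freedom, 5.72 to 8.17).

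The genes and lists were chosen with earlier results of these data known. Named from each list were up to 4 called genes, taken in order of adjusted p, and 2 genes where a list had no call; some of these are not reported here. REST, PRPH, DES, GFAP, SIX2, TH, UMOD and AQP2 were named after their values were seen. Of TUBB3, 2 rows exist, and that with an own symbol was used. SYN2 and PECAM1 were not analysed here. Lists were described by counts and medians only. Gene structure came from GENCODE v29 and promoters from RefSeq.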

Additional observations from a re-analysis of the deposited data

How the results depend on the processing

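VIM and UCHL1 kept their direction and call under all 14 alternatives, with log2 changes of -0.18 to -0.14 and -0.45 to -0.16. INA kept both under 13, and KRT8 stayed uncalled under all 14. For NEFM the log2 change with limma on log2(TPM + 1) and log2(TPM + 0.1) was 0.11 and 0.12, uncalled, and 0.095 to 0.14 with 1 library left out. With 1 library left out INA ranged from -0.37 to -0.22. NES and KRT18, both near 0, changed sign: with no filter they were at -0.0046 and -0.0061, with limma on log2(TPM + 1) at -0.012 and -0.056, with log2(TPM + 0.1) at -0.014 and -0.057, and with 1 library left out they ranged from -0.017 to 0.040 and from -0.028 to 0.036. The NEFH share differed by -0.209 to 0.323 percentage points with 1 library left out. The cause of these shifts was not tested. With 1 library left out 0 to 1 of the 8 genes was called higher, and 11 to 18 genes of the other lists, against 18 with all libraries. Among all genes, 1605 to 2134 were called higher with 1 library left out, against 2221 with all libraries. With limma on log2(TPM + 1), 0 of the 8 genes and 8 genes of the other lists were called higher, and with log2(TPM + 0.1) 0 and 7. Among all genes the 2 limma settings called 1209 and 1207 higher. The INA share difference was -8.16 to -5.28 percentage points with 1 library left out, and the vimentin share difference was -2.06 with CPM and -1.79 with a fixed transcript length, added after seeing the data. The replicate numbers did not pair the samples: same-numbered deviations correlated at -0.134 to -0.0771, and the other pairs at -0.0927 to 0.197. The value was 0.197 for GFP replicate 3 with CTRB1 replicate 1. It was 0.177 for GFP replicate 2 with CTRB1 replicate 3, and 0.135 for GFP replicate 1 with CTRB1 replicate 2. All remaining pairs were negative, so each library occurs in 1 positive pair. A pairing under other numbers was not tested. With the replicate block 2119 genes were called higher and 2201 lower, and the 4 called genes kept their calls.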
